A study of Mus musculus with 4 samples.

Results

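C1q macrophages without Ccl8 are macrophages that hold RNA of the complement subunits C1qa, C1qb and C1qc but no captured molecule of the chemokine Ccl8. They were chosen by measured values, from 4 droplet single-cell RNA libraries of mouse cells, with a rule on unique molecular identifiers (UMIs, each standing for 1 captured RNA molecule). Cells were kept if 500 or more genes were detected in them and mitochondrial UMIs made up 10% or less. A cell was a member with 5 or more C1q UMIs, 0 Ccl8 UMIs, at most 3 UMIs of the resident peritoneal genes Timd4, Prg4, Alox15 and Gata6, at most 1 UMI of the cell cycle genes Mki67 and Top2a, and none of Cd3e, Cd3d, Cd3g or Cd79a. The rule gave 3347 members among 35372 kept cells.

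The study asked, by its title, whether acting on glycans makes ovarian tumours in mice respond to immune checkpoint blockade. Its groups were 2DG_aPDL1 (both agents, called the combination here), 2DG alone, aPDL1 alone and ctrl, with 1 library each. 2DG is 2-deoxy-D-glucose, a glucose analogue that enters cells but cannot pass through glycolysis and that also disturbs the building of N-glycans, and aPDL1 is an antibody against the checkpoint ligand PD-L1, which Cd274 encodes. The labels gave lymph node as the tissue of all 4 libraries and gave no age, sex, strain, dose, schedule or number of animals, although the series describes young and aged mice.

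C1q is the recognition unit that starts the classical complement pathway, and tissue macrophages are its main source. Macrophages that make C1q commonly also carry Apoe, a lipid carrier, and genes for taking up dead cells and presenting antigen. Such cells can descend from monocytes that enter a tissue or from macrophages that settled there earlier. In tumours, macrophages may show an interferon-driven state with MHC class II and the T cell attractants Cxcl9 and Cxcl10, or a state with arginase 1 (Arg1), osteopontin (Spp1) and genes of low oxygen, and both can overlap in a cell. Ccl8 is a chemokine that attracts monocytes and T cells, made by some tissue macrophages.

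The members numbered 916 in the combination, 657 in 2DG, 733 in aPDL1 and 1041 in ctrl. They were 9.86% of kept cells in the combination (95% exact Clopper-Pearson interval 9.26 to 10.5), 8.27% in 2DG (7.67 to 8.90), 8.10% in aPDL1 (7.55 to 8.69) and 11.5% in ctrl (10.8 to 12.1). The share was highest in ctrl, and the intervals of 2DG and aPDL1 overlapped. That order did not hold under 3 alternatives. Without members holding any UMI of the neutrophil genes S100a8 or S100a9, the shares were 9.37% in the combination, 7.58% in 2DG, 7.57% in aPDL1 and 4.77% in ctrl. With cells thinned to 3000 UMIs before the rule they were 11.1% in the combination and 10.9% in ctrl. Without members that had 2 or more UMIs of Arg1 and Spp1 together they were 2.49% and 1.90%. That low limit, called high in Arg1 and Spp1 below, took out most members. It left 231 of 916 in the combination and 173 of 1041 in ctrl. With 1 library a group there was no test between conditions, and all intervals cover counting error only. Fewer of these cells and less RNA of the defining genes per cell cannot be told apart where cells are counted by a UMI threshold.

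Of the cells with 5 or more C1q UMIs, those left out for T cell genes numbered 179 in the combination, 160 in 2DG, 122 in aPDL1 and 66 in ctrl. The cell cycle limit left out 140, 138, 127 and 190 cells, the resident gene limit 51, 17, 24 and 10, and Cd79a 17, 11, 17 and 10, in the same order of libraries, and a cell could fail more than 1 limit. Cells that met every other part of the rule but held Ccl8 numbered 385 in the combination, 368 in 2DG, 237 in aPDL1 and 161 in ctrl, and they are the comparison set used below.

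Members were deep cells, with a median of 8618.5 UMIs in the combination, 9313 in 2DG, 8242 in aPDL1 and 11679 in ctrl, against 6247, 6656, 6150 and 6304 over all kept cells. Ctrl was also the library with most neutrophils, a cell type that is rare in lymph node: 2588 kept cells there carried neutrophil genes, against 156 in the combination, 218 in 2DG and 185 in aPDL1. Cells with 2 or more UMIs of the Cd3 genes were 31.6% of kept cells in the combination, 37.1% in 2DG, 31.6% in aPDL1 and 5.50% in ctrl. Cells with 2 or more Cd79a UMIs, which mark the B cells that fill lymph node follicles, were 5.41% of kept cells in the combination, 1.67% in 2DG, 2.71% in aPDL1 and 0.781% in ctrl. Pairs of libraries shared 22 to 30 cell barcodes, and 1 barcode was a member in both libraries of a pair.

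The RNA of these neighbours was found in the members. Summed over 12 neutrophil genes, members had 592 CPM (counts per 1000000 UMIs) in the combination, 894 in 2DG, 554 in aPDL1 and 2369 in ctrl, while neutrophils had 62578 to 104381 CPM. Of these genes 1 was at 0 in members of aPDL1 and none in the other libraries. Acod1 on this list is also made by activated macrophages, and was at 157 to 265 CPM in members. T cells, which are not a source of neutrophil RNA, had 301, 382, 416 and 2749 CPM for the list in the same order of libraries. S100a8, an abundant neutrophil gene, was at 6.54 CPM in the combination, 175 in 2DG, 9.61 in aPDL1 and 695 in ctrl. Members with 10 or more UMIs of S100a8 and S100a9 were 1 in the combination, 2 in 2DG, 1 in aPDL1 and 91 in ctrl. Gzma, a granzyme gene of cytotoxic lymphocytes, ran the other way, at 33.4 CPM in the combination, 26.0 in 2DG, 32.8 in aPDL1 and 0.0837 in ctrl, with 86.4 to 330 CPM in T cells. Summed over 13 T and NK cell genes, members had 143, 102, 141 and 95.6 CPM, with 1 gene at 0 in ctrl, against 3535 to 5797 CPM in T cells. The receptor gene Trac was at 2.18, 3.40, 1.98 and 0.754 CPM in members of these libraries. The part that these foreign RNAs have in the differences from ctrl was not tested, and results are given below with and without the members that hold them. Haemoglobin RNA also differed, with Hbb-bs at 74.6 CPM in the combination, 44.8 in 2DG, 0.305 in aPDL1 and 4.02 in ctrl.

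**Figure D1:**
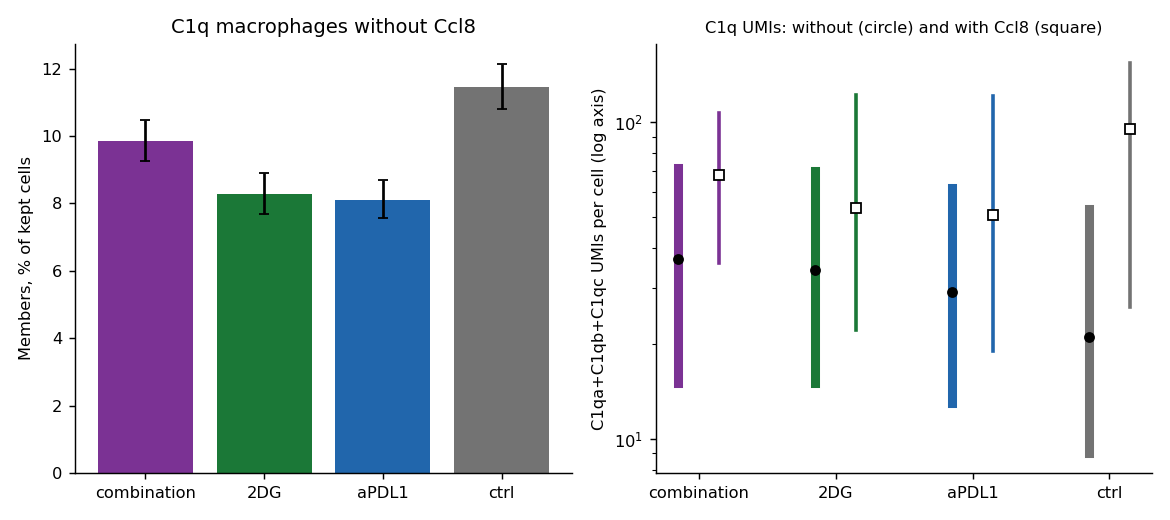
Left, members as a percentage of kept cells in each library, with exact 95% binomial intervals. Right, C1qa+C1qb+C1qc UMIs per cell on a log axis for members (circle, median; thick bar, quartiles) and for the same cells with Ccl8 (square, median; thin bar, quartiles). The share was highest in ctrl at 11.5%, and the members' median C1q count was lowest there at 21.

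The markers named for these cells were present beyond the rule. Apoe, which the rule did not use, was at 2602 CPM in the combination, 2484 in 2DG, 2527 in aPDL1 and 2709 in ctrl, against 38.3 to 45.6 CPM in T cells. Thinned to 3000 UMIs a cell so that depth was equal, 73.5 to 80.5% of members had an Apoe UMI in the 4 libraries, against 5.21 to 6.88% of T cells. T cells lack the gene, so what they hold of it is free RNA. The T cells used for CPM and thinned shares were only those with no C1q UMI, 82.6 to 86.0% of T cells by Cd3 genes. Cells that had taken up C1q RNA were left out, so the T cell values for macrophage genes can understate free RNA. The unthinned shares were 82.1 to 91.7%. All 20 mononuclear phagocyte genes were detected, among them Csf1r, the receptor for the main macrophage growth factor, at 372 to 461 CPM. The dendritic cell gene Flt3 was at 0.969 to 3.97 CPM. The members therefore carried the markers of their label.

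Ccr2, the receptor that brings monocytes out of the blood, was found in 64.5% of thinned members in the combination (95% exact interval 61.2 to 67.7), 68.8% in 2DG (65.0 to 72.5), 67.8% in aPDL1 (64.1 to 71.3) and 64.1% in ctrl (60.9 to 67.2), against 21.5 to 27.0% of T cells, some of which express it. Genes of long-settled macrophages varied. Folr2, a folate receptor, was found in 2.38 to 3.39% of thinned members, and Lyve1, a hyaluronan receptor, in at most 0.455%. Timd4 was at 0.121 to 0.464 CPM, a level that the rule limits. The mannose receptor gene Mrc1 was common, found in 61.1% of thinned members in the combination, 56.5% in 2DG, 48.2% in aPDL1 and 41.6% in ctrl, against 0.89 to 1.64% of T cells. Selenop, a selenium carrier, was found in 37.0, 30.0, 23.3 and 27.3% of thinned members in those libraries, against 4.08 to 5.68% of T cells. Pf4, a platelet chemokine that some macrophages make, was found in 9.78, 10.99 and 11.1% of thinned members in the treated libraries and 32.6% in ctrl, against 0.169 to 1.70% of T cells.

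The rule's thresholds set values at its edge, which are given as a description. Members with 5 or 6 C1q UMIs, just inside, numbered 62 in the combination, 44 in 2DG, 49 in aPDL1 and 140 in ctrl, and had Apoe at 1511, 1219, 1563 and 1017 CPM. Cells with 3 or 4 C1q UMIs, just outside, had Apoe at 940, 1145, 675 and 1161 CPM in those libraries. Across the Ccl8 edge, cells with exactly 1 Ccl8 UMI had Apoe at 2685, 2473, 2848 and 6440 CPM, and those with 2 or more had 4359, 6838, 9632 and 12218 CPM. Cells with a single Ccl8 UMI were therefore near members in 2DG, the combination and aPDL1 for Apoe, and far from them in ctrl. The T cells counted next include those with C1q UMIs. T cells held at least 1 Ccl8 UMI in 2.94% of cells in the combination, 5.95% in 2DG, 3.22% in aPDL1 and 1.60% in ctrl, which is the background of free Ccl8 RNA at the edge. T cells with 5 or more C1q UMIs were 2.73% in the combination, 2.22% in 2DG, 2.33% in aPDL1 and 4.0% in ctrl.

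C1q content itself varied widely among members. The median was 37 C1q UMIs in the combination, 34 in 2DG, 29 in aPDL1 and 21 in ctrl, and the upper quartiles were 71.5, 70, 62 and 53. To see what else varied with it, members thinned to 3000 UMIs were ranked by C1q UMIs within each library, and the upper tercile was set against the lower tercile, 206 to 307 cells in each. These groups were made from the data, so the values are a description with no test. Of 8798 genes compared, 169 were at least 1.5-fold higher and 161 at least 1.5-fold lower in the upper tercile in 4 of 4 libraries. The list counts for terciles below are by any amount. The share of all genes higher or lower by any amount in 4 of 4 libraries was not computed, so those counts have no like background.

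Of 20 mononuclear phagocyte genes, 14 were higher in the upper tercile in 4 of 4 libraries and none was lower in all 4. Of 11 tissue macrophage genes 6 were higher in all 4 and 1, F13a1, was lower, while Pf4 was higher in 3 libraries and lower in aPDL1, at -0.39 on the log2 scale. Ms4a7, a membrane gene of mature macrophages, was at 140 CPM in the upper and 36.4 CPM in the lower tercile in the combination, 121 and 30.7 in 2DG, 103 and 29.4 in aPDL1, and 121 and 11.9 in ctrl. Apoe was at 3934 and 1316 CPM in the combination, 3636 and 1193 in 2DG, 3819 and 1401 in aPDL1, and 5211 and 1222 in ctrl. Others that were higher in all 4 libraries included Pdgfc, a growth factor, Cd81, a tetraspanin, Blnk, a signalling adaptor, and Itga6, an integrin chain. The dead-cell receptor Mertk and the lipid receptor Trem2 were 1.01 to 1.31 and 1.097 to 1.51 higher on the log2 scale.

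Of 15 monocyte genes, 12 were lower in the upper tercile in 4 of 4 libraries and 1 was higher. Ly6c2, which marks classical monocytes, was at 38.7 CPM in the upper and 197 CPM in the lower tercile in the combination, 11.3 and 108 in 2DG, 42.6 and 147 in aPDL1, and 35.8 and 115 in ctrl. Plac8, another monocyte gene, was at 625 and 1943, 270 and 1150, 383 and 1013, and 402 and 1283 CPM in those libraries. Inhba, the activin A subunit, was lower in the upper tercile by 2.41 to 3.85 on the log2 scale, and Cxcl3, a neutrophil attractant, by 1.88 to 2.99. Of 16 arginase and hypoxia genes, 14 were lower in the upper tercile in 4 of 4 libraries and none was higher in all 4. Arg1 itself differed less between terciles, with log2 ratios of 0.03 in the combination, -0.29 in 2DG, -0.44 in aPDL1 and -0.87 in ctrl. H2-Aa, an MHC class II chain, was higher in the upper tercile everywhere, by 0.85, 0.54, 0.52 and 1.76 on that scale.

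**Figure D2:**
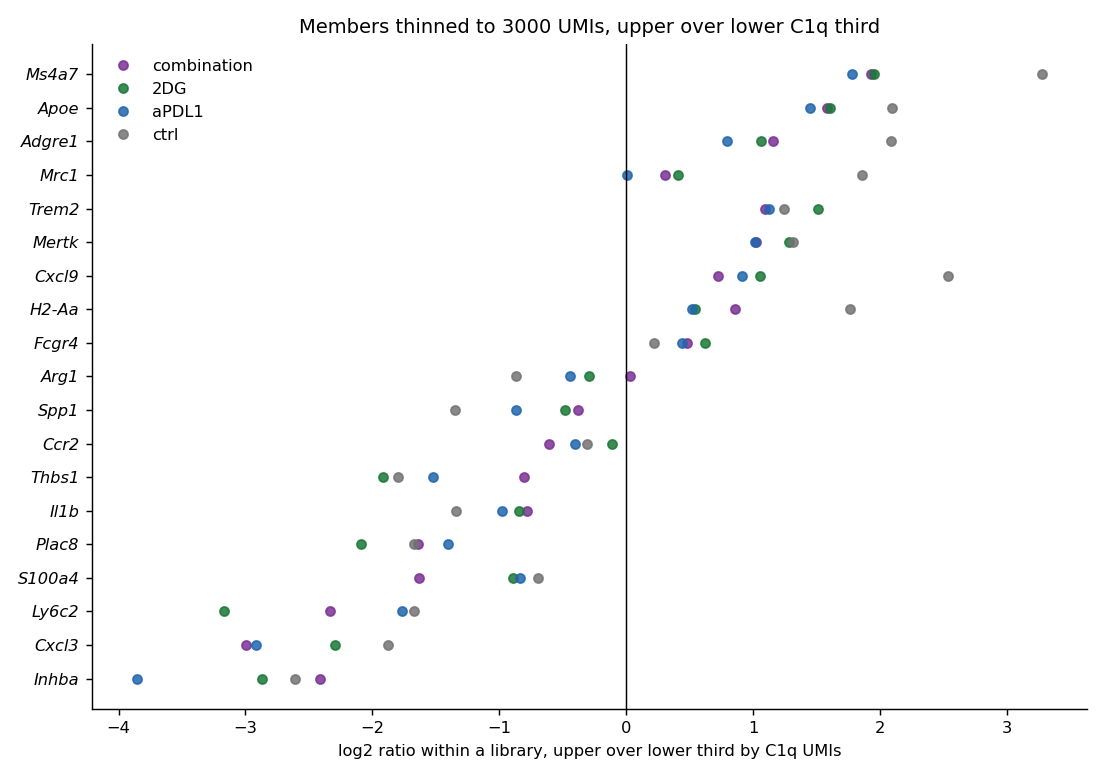
Log2 ratio of summed CPM between the upper and the lower tercile of members by C1q UMIs, after thinning each cell to 3000 UMIs, 1 point a library. Macrophage genes such as Ms4a7 and Apoe lie to the right in all 4 libraries, and Ly6c2, Plac8, Cxcl3 and Inhba to the left.

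The Arg1 or Spp1 state was common and overlapped with antigen presentation. At 3000 UMIs a cell, 65.4% of members in the combination, 73.7% in 2DG, 70.9% in aPDL1 and 74.1% in ctrl had 2 or more UMIs of Arg1 and Spp1 together. In the combination 87.0% of those cells had 2 or more H2-Aa UMIs, against 93.8% of the members without that state. The same shares were 89.3% and 93.9% in 2DG, 81.6% and 96.0% in aPDL1, and 35.8% and 66.1% in ctrl. H2-Aa was thus less frequent in members with Arg1 or Spp1 in each library, and ctrl was low in both kinds of member.

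Against ctrl, members of the 3 treated libraries had more MHC class II and interferon gamma response RNA and less of the arginase, hypoxia and lipid-associated RNA. The ctrl library is shared by these comparisons, so the 3 treated libraries are not independent evidence of that difference. Ratios were taken between UMIs summed over members, with 0.5 added to each sum and scaled to CPM, over the 12012 genes with at least 40 UMIs in all. In 2DG over ctrl, 11.4% of those genes were at least 1.5-fold higher and 8.75% at least 1.5-fold lower. In aPDL1 over ctrl the shares were 13.6% and 9.13%, and in the combination over ctrl 11.9% and 13.3%. The median log2 ratio of all genes was 0.08 in 2DG over ctrl, 0.11 in aPDL1 over ctrl and 0.01 in the combination over ctrl.

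MHC class II molecules hold peptides for CD4 T cells. Of 11 genes of the pathway, 9 were at least 1.5-fold higher in the combination over ctrl, 10 in 2DG over ctrl and 10 in aPDL1 over ctrl, with median log2 ratios of 1.098, 1.25 and 1.33. H2-Aa was at 4111 CPM in the combination (95% exact Poisson interval 4067 to 4155), 3735 in 2DG (3688 to 3783), 3880 in aPDL1 (3832 to 3928) and 1394 in ctrl (1373 to 1415). Cd74, the invariant chain that guides class II molecules to the endosome, was at 10618, 9922, 10075 and 4168 CPM in those libraries. Ciita, the transcription factor that switches the class II genes on, was at 192 CPM in the combination, 282 in 2DG, 288 in aPDL1 and 89.4 in ctrl. The combination was below each single agent for Ciita. It was also below them for H2-Ob, a chain that restrains peptide loading, at 3.03 CPM in the combination, 6.34 in 2DG, 8.55 in aPDL1 and 3.01 in ctrl, and for H2-DMb2, at 15.3, 21.2, 27.2 and 13.7 CPM.

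Cell by cell, most members of ctrl had less class II RNA than most members of each treated library. A change within cells and a change in the mix of members cannot be told apart. At 3000 UMIs a cell, H2-Aa was found in 94.0% of members in the combination (95% exact interval 92.2 to 95.5), 94.0% in 2DG (91.9 to 95.8), 90.5% in aPDL1 (88.0 to 92.6) and 54.1% in ctrl (50.8 to 57.3), against 7.10 to 8.88% of T cells. The unthinned shares were 96.4, 96.8, 93.3 and 66.1%. Summed over the 11 genes, the median member had 79 class II UMIs of 3000 in the combination, 70 in 2DG, 73 in aPDL1 and 15 in ctrl. The quartiles of the treated libraries began at 47, 45 and 41 UMIs, and the upper quartile of ctrl was 42.

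The interferon gamma response list, genes that this T cell and NK cell cytokine induces, held 25 tested genes. Of these 22 were at least 1.5-fold higher in the combination over ctrl, 19 in 2DG over ctrl and 21 in aPDL1 over ctrl, with median log2 ratios of 1.45, 0.94 and 1.03. Cxcl9, which attracts activated T cells, was at 1318 CPM in the combination, 772 in 2DG, 1259 in aPDL1 and 343 in ctrl. Its sister Cxcl10 was at 570, 296, 363 and 186 CPM. Fcgr4, an activating antibody receptor, was at 689, 511, 434 and 225 CPM. The exceptions were Nos2, the inducible nitric oxide synthase, at 221 CPM in the combination, 185 in 2DG, 185 in aPDL1 and 289 in ctrl, and Acod1, which makes itaconate, at 265, 157, 237 and 234 CPM.

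Ligands of the PD-1 receptor did not move together. Pdcd1lg2, which encodes PD-L2, was at 119 CPM in the combination (112 to 127), 114 in 2DG (106 to 123), 134 in aPDL1 (125 to 143) and 25.2 in ctrl (22.4 to 28.2). Cd274, the target of the antibody, was at 545, 478, 460 and 414 CPM in those libraries, a far smaller range. Of 16 tested checkpoint genes, 4 were at least 1.5-fold higher and 2 at least 1.5-fold lower in the combination over ctrl. Il18bp, a secreted inhibitor of interleukin 18, was at 75.7 CPM in the combination, 45.3 in 2DG, 46.4 in aPDL1 and 19.0 in ctrl. MHC class I genes, which display peptides to CD8 T cells, were at least 1.5-fold higher in the combination over ctrl in 14 of 16 cases, with a median log2 ratio of 0.96, against 8 of 16 in 2DG and 8 of 16 in aPDL1, with medians of 0.61 and 0.56.

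The arginase and hypoxia list held the genes that were lower. Of its 16 tested genes, 14 were at least 1.5-fold lower in the combination over ctrl, 11 in 2DG over ctrl and 9 in aPDL1 over ctrl, with median log2 ratios of -1.04, -1.16 and -0.79. Spp1 was at 594 CPM in the combination (578 to 611), 931 in 2DG (908 to 955), 1139 in aPDL1 (1114 to 1165) and 2855 in ctrl (2824 to 2885). Arg1, which breaks down arginine, was at 2564, 3782, 3528 and 4907 CPM. For both genes the combination was lowest and ctrl highest. Hilpda, a hypoxia-induced regulator of lipid droplets, was level among treated libraries at 141, 125 and 141 CPM, with 498 CPM in ctrl. Thbs1, a secreted adhesive protein, was at 330, 421, 292 and 1394 CPM. Egln3, an oxygen-sensing hydroxylase, was at 32.3 CPM in the combination, 62.9 in 2DG, 98.7 in aPDL1 and 226 in ctrl.

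Arg1 shows how a sum and a share can part. At 3000 UMIs a cell it was found in 69.7% of members in the combination, 77.5% in 2DG, 73.4% in aPDL1 and 73.6% in ctrl, so its share in ctrl lay within the range of the treated libraries while its CPM was the highest. T cells held it in 2.50, 3.84, 4.93 and 12.5% of cells. Spp1 was found in 30.9, 35.5, 39.5 and 65.0% of members, against 3.88 to 16.2% of T cells.

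Lipid-associated macrophage genes, a set seen in macrophages that take up lipid, split. Of 17 tested genes, 9 were at least 1.5-fold lower in the combination over ctrl, 8 in 2DG over ctrl and 7 in aPDL1 over ctrl, with medians of -0.61, -0.58 and -0.47. Cd9, a tetraspanin, was at 90.8 CPM in the combination, 146 in 2DG, 167 in aPDL1 and 421 in ctrl. Plin2, which coats lipid droplets, was at 286, 286, 303 and 725 CPM. Fabp5, a fatty acid carrier on the same list, went the other way at 1117 CPM in the combination (1094 to 1140), 595 in 2DG (576 to 614), 656 in aPDL1 (636 to 675) and 258 in ctrl (249 to 268). Trem2 was at 170, 181, 146 and 138 CPM.

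These differences were computed again without the members that held any S100a8 or S100a9 UMI, a choice made after the data were seen, which left 434 members in ctrl. The class II medians were then 1.11 in the combination over ctrl, 1.103 in 2DG and 1.12 in aPDL1, and the arginase and hypoxia medians -0.96, -0.998 and -0.56. Without members that had 2 or more UMIs of Arg1 and Spp1, which left 231, 129, 166 and 173 members, the class II medians were 0.47, 0.78 and 0.86. The interferon gamma medians were 1.35, 0.98 and 1.23 among those cells. Without members holding a T or NK marker UMI, a choice also made after the data were seen, they were 1.46, 0.94 and 1.02.

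Neutrophil and cytotoxic lymphocyte genes were among those in which ctrl stood farthest from the other libraries. Ctrl was at least 1.5-fold above the range of the other 3 libraries in 4.21% of the 12012 genes and below it in 5.29%. The 6 largest of the higher genes with 50 or more UMIs were Stfa2l1, Asprv1, G0s2, Myo1d, Cxcl3 and Crispld2. In ctrl members G0s2 was at 102 CPM, with 2952 CPM in ctrl neutrophils, and Cxcl3 at 571 CPM, with 3077 CPM in those neutrophils. The 6 largest of the lower genes were Gzma, Gm17080, Dnah12, 2010009K17Rik, Gzmb and Prf1, of which Gzma, Gzmb and Prf1 are made by cytotoxic lymphocytes. 2010009K17Rik was at 40.6 CPM in the combination, 36.9 in 2DG, 38.3 in aPDL1 and 2.43 in ctrl, with 4.14 CPM in T cells of the combination.

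**Figure D3:**
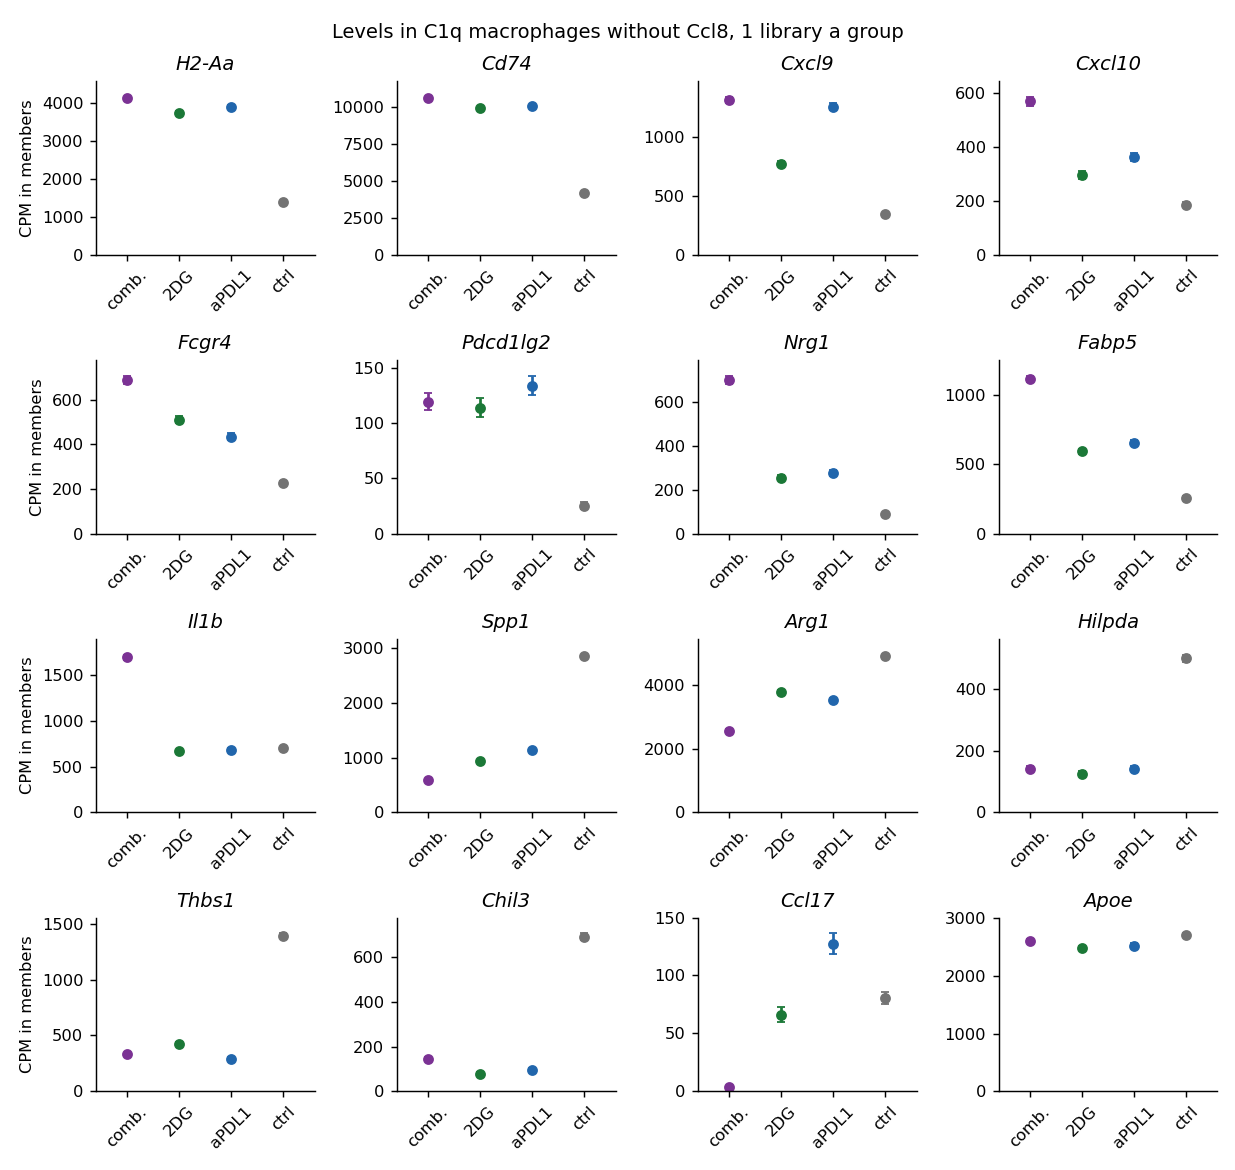
CPM over all members for 16 genes in the combination, 2DG, aPDL1 and ctrl, 1 library each, with exact 95% Poisson intervals that are often smaller than the point. H2-Aa, Cd74, Cxcl9 and Pdcd1lg2 are lowest in ctrl, Spp1, Arg1, Hilpda, Thbs1 and Chil3 are highest there, Il1b stands out in the combination, and Apoe is level at 2484 to 2709 CPM.

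The 2DG comparison asked what 2DG changed with and without the antibody, as the ratio of 2DG to ctrl and that of the combination to aPDL1, which share no library. Genes at least 1.5-fold higher in both numbered 177 of 12012, or 1.47%, and genes lower in both 247, or 2.06%. Genes past 1.5-fold in opposite directions, pooled over both orders, numbered 389, or 3.24%. Few genes moved at least 1.5-fold one way with 2DG in both settings. In the combination over aPDL1 alone, 6.49% of genes were higher and 12.0% lower, with a median log2 ratio of -0.09 over all genes.

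Nrg1, a neuregulin growth factor, was among the genes higher with 2DG in both ratios, at 701 CPM in the combination, 255 in 2DG, 276 in aPDL1 and 89.7 in ctrl. The other 5 named by size as higher with 2DG were Dnah12, a dynein chain, Gm17749, Gm15056, Ccl5 and Nup107, a nuclear pore gene. Ccl5, which draws T cells and monocytes, was at 1005 CPM in the combination, 396 in 2DG, 428 in aPDL1 and 90.4 in ctrl. T cells made more of it, at 6430, 5079, 4756 and 2552 CPM. The part of T cell RNA in the members' Ccl5 was not tested.

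Named by size as lower with 2DG were Hspa1b, S100a9, Slc15a2, Egln3, Nt5e and Hist1h2ac. Hspa1b, an inducible heat shock protein, was at 23.9 CPM in the combination, 93.3 in 2DG, 104 in aPDL1 and 312 in ctrl. Nt5e, the CD73 enzyme that makes adenosine, was at 25.6, 79.9, 127 and 235 CPM. Without the members high in Arg1 and Spp1, Nt5e turned round in 2DG over ctrl, to a log2 ratio of 0.35.

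Few glycolysis genes, of the pathway that 2DG blocks, passed 1.5-fold. Of 20 tested genes, none was past 1.5-fold in the same direction in both ratios, and 14 were lower by any amount in both, beside 23.9% of all genes. The medians were -0.17 in 2DG over ctrl and -0.37 in the combination over aPDL1, beside 0.08 and -0.09 over all genes. Gapdh was at 1593 CPM in the combination, 1830 in 2DG, 1935 in aPDL1 and 1940 in ctrl. The glucose transporter Slc2a1 was at 191, 240, 271 and 365 CPM. Hexokinase 2, the first enzyme of the pathway, had Hk2 at 204 CPM in the combination, 271 in 2DG, 287 in aPDL1 and 208 in ctrl, so its 2 ratios pointed opposite ways. Txnip, whose RNA follows glucose entry, did the same at 127, 196, 185 and 126 CPM.

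N-glycan synthesis genes moved little in the median. The 32 tested genes had medians of 0.02 in 2DG over ctrl and -0.10 in the combination over aPDL1, and none was past 1.5-fold in both. Single genes did move. In the combination over aPDL1, 1 was at least 1.5-fold higher and 3 lower, beside 6.49% and 12.0% of all genes, with log2 ratios from -0.78 to 1.02. In 2DG over ctrl 1 was higher and 0 lower, beside 11.4% and 8.75% of all genes. Mgat5, a branching enzyme, was at 265 CPM in the combination, 258 in 2DG, 281 in aPDL1 and 241 in ctrl. Oxidative phosphorylation genes, 32 tested, had medians of 0.08 and -0.03 and none past 1.5-fold in either ratio. Heat shock genes, 12 tested, had medians of -0.40 and -0.25, with 4 at least 1.5-fold lower in both.

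The aPDL1 comparison used the same 4 libraries, as the ratio of aPDL1 to ctrl and that of the combination to 2DG, and so is not independent of the one before. Genes at least 1.5-fold higher in both numbered 212, or 1.76%, genes lower in both 233, or 1.94%, and genes in opposite directions 417, or 3.47%. In the combination over 2DG alone, 6.26% were higher and 10.4% lower, with a median of -0.06. Of the interferon gamma genes 7 of 25 were at least 1.5-fold higher in both ratios and 20 were higher by any amount, beside 24.9% of all genes. Cxcl9 and Cxcl10 were among the 7, with log2 ratios of 1.88 and 0.97 in aPDL1 over ctrl and 0.77 and 0.95 in the combination over 2DG. Class II genes had a median of 0.08 in the combination over 2DG, with none of 11 at least 1.5-fold higher and 1 at least 1.5-fold lower. By any amount 5 of 11 were lower, beside 6880 of 12012 genes in all.

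Named by size as higher with aPDL1 were Fcna, Gm15056, Ikzf3, Gzmb, Nrg1 and Ablim1. Fcna, a ficolin that starts the lectin route of complement, was at 12.0 CPM in the combination, 1.70 in 2DG, 11.3 in aPDL1 and 2.68 in ctrl. Ikzf3, Gzmb and Ablim1 were much higher in T cells, at 640, 568 and 755 CPM in T cells of the combination against 16.3, 17.8 and 10.7 CPM in members. Named as lower were S100a9, Ngp, S100a8, Lcn2, Retnlg and Hspa1b, of which all but Hspa1b are neutrophil genes. When members with 10 or more UMIs of S100a8 and S100a9 were left out, S100a8 and Lcn2 in the combination over 2DG changed direction, with log2 ratios of 0.13 and 0.78.

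Members of the combination stood apart in inflammatory and immediate early genes, but this was not particular to members. Summed inflammatory genes in cells with Ccl8 were at 5563 CPM in the combination, 2905 in 2DG, 3284 in aPDL1 and 2785 in ctrl. For that sum T cells and neutrophils were also highest in the combination, and B cells in ctrl. In members the combination was at least 1.5-fold above the range of the other 3 libraries in 224 of 12012 genes, or 1.86%, and below it in 470, or 3.91%. Of 23 tested inflammatory genes, 16 were above the range by any amount, beside 22.6% of all genes, 5 of them by 1.5-fold, and none was below it. Il1b, the fever cytokine interleukin 1 beta, was at 1695 CPM in the combination (1667 to 1723), 666 in 2DG (646 to 686), 678 in aPDL1 (658 to 698) and 703 in ctrl (688 to 718). It was found in 79.5% of thinned members in the combination, 58.2% in 2DG, 57.8% in aPDL1 and 50.6% in ctrl, against 3.33 to 12.5% of T cells. Nlrp3, an inflammasome sensor, was at 600, 348, 347 and 379 CPM. Other inflammatory genes matched ctrl instead: Nfkbia, an NF-kB inhibitor, was at 1006 CPM in the combination, 524 in 2DG, 610 in aPDL1 and 1020 in ctrl. Il6 was highest in ctrl, at 21.3, 16.1, 27.9 and 100 CPM.

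Immediate early genes, which switch on within minutes of stimulation or of tissue handling, had medians of 0.68 in the combination over aPDL1 and 0.72 in the combination over 2DG, with 11 and 14 of 20 at least 1.5-fold higher. In 2DG over ctrl and aPDL1 over ctrl their medians were -0.28 and -0.18. In the combination over ctrl the median was 0.48, with 7 of 20 at least 1.5-fold higher, beside 11.9% of all genes. Above the range of the other 3 libraries were 16 of 20 by any amount, beside 22.6% of all genes. By 1.5-fold 3 of 20 were above it, beside 1.86% of all genes. Fos was at 2729 CPM in the combination, 1434 in 2DG, 1366 in aPDL1 and 1870 in ctrl. Zfp36, which destabilises cytokine RNA, was at 1103, 501, 326 and 925 CPM. Summed immediate early genes in cells with Ccl8 were at 16108 CPM in the combination, 9376 in 2DG, 8712 in aPDL1 and 11400 in ctrl. T cells had 7555, 4502, 5413 and 6321 CPM for that sum, while B cells and neutrophils were highest in ctrl. How long the cells were handled is not given in the labels, and its part was not tested.

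Of 10 tested dendritic cell genes, 4 were at least 1.5-fold below the range of the other libraries in the combination and 2 at least 1.5-fold above it. Cd209a, a lectin, was among the higher, at 7.51 CPM in the combination, 3.71 in 2DG, 2.14 in aPDL1 and 1.09 in ctrl. Ccl17, a chemokine for T cells, was at 3.39 CPM in the combination (2.25 to 4.90), 65.8 in 2DG (59.7 to 72.4), 127 in aPDL1 (119 to 136) and 80.6 in ctrl (75.6 to 85.8). Ccl22 was at 1.45, 4.48, 11.8 and 7.70 CPM, and Mgl2, a lectin, at 69.3, 148, 207 and 193 CPM. The 6 named by size as below the range were Il1f9, Ccl17, Sh3bgrl2, Fscn1, Plet1 and Atp6v0d2, and those above it Hao1, Gm17080, Gm49662, Ankdd1a, Gm15056 and Ndnf. Summed over 12 dendritic cell genes, members had 29.8 CPM in the combination, 36.3 in 2DG, 55.1 in aPDL1 and 38.7 in ctrl, and Flt3 was at 0.969, 1.85, 3.97 and 2.93 CPM. The part of dendritic cell RNA in the low Ccl17 was not tested.

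**Figure D4:**
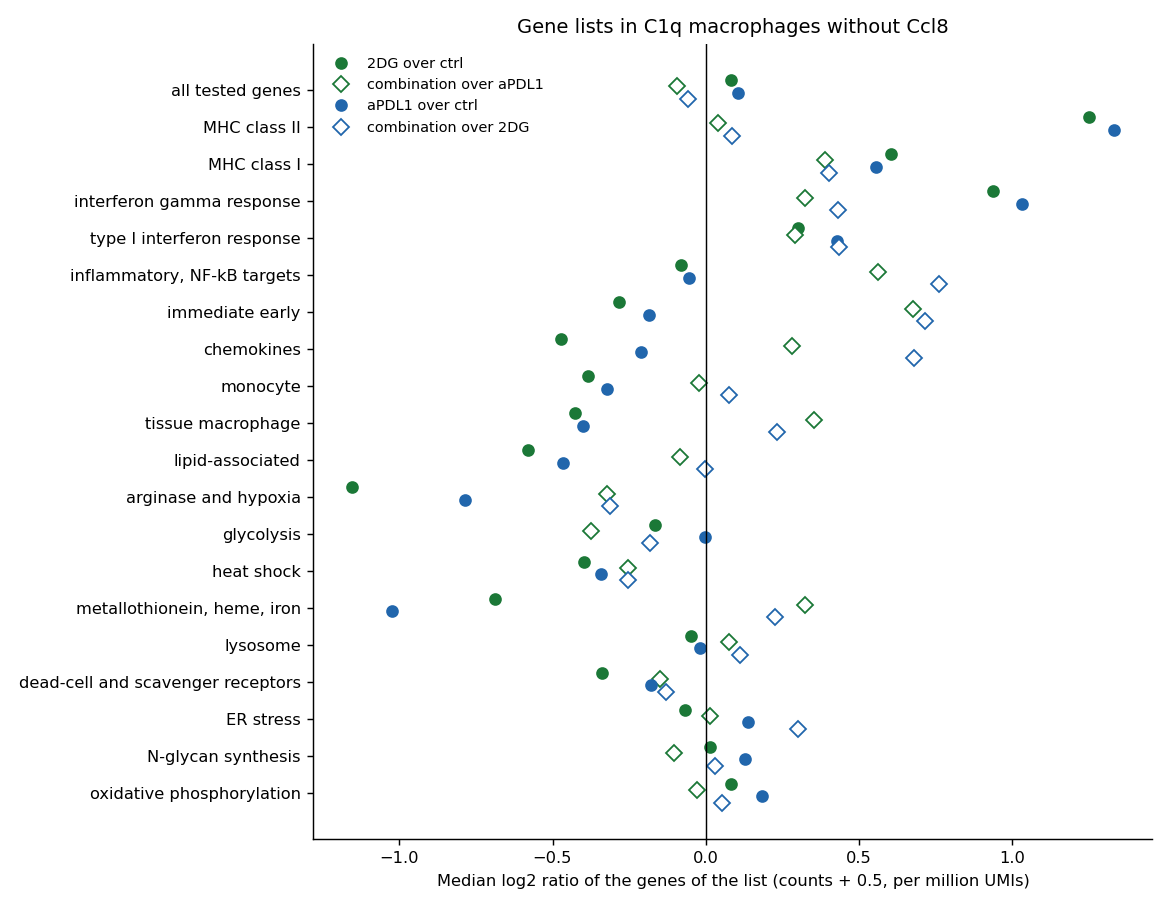
Median log2 ratio of each gene list in members for 4 ratios, each agent alone over ctrl and the combination over each agent alone, with all tested genes in the top row. Class II lies above 1 in the ratios to ctrl and near 0 in the ratios of the combination, while the inflammatory and immediate early lists lie to the right only in the ratios of the combination that are shown.

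Members were then tested against the C1q macrophages with Ccl8 of the same libraries, with edgeR's quasi-likelihood test on UMIs summed per library and cell set and the library as block. Monocyte genes were higher and settled macrophage genes lower in members. The genes of the rule are left out of the counts. Of 11181 genes tested, 461 (4.12%) were higher and 392 (3.51%) lower in members at an adjusted p (Benjamini-Hochberg) under 0.05, and 452 and 386 of these had that direction in 4 of 4 libraries. C1q content also differed, with a median of 37, 34, 29 and 21 C1q UMIs in members and 68, 53.5, 51 and 95 in cells with Ccl8, in the order combination, 2DG, aPDL1 and ctrl. Its part in the differences was not tested.

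Of 15 monocyte genes, 11 rose in members and none fell, with a median log2 fold change of 0.94 beside 0.0014 over all genes. Ccr2 was at 566 CPM in members and 337 CPM in cells with Ccl8 in the combination, 594 and 371 in 2DG, 575 and 305 in aPDL1, and 556 and 274 in ctrl. Its log2 fold change was 0.88 ± 0.09 (SE, 4 libraries, edgeR adjusted p = 9.4e-04). Ly6c2 rose by 0.93 ± 0.09 (edgeR adjusted p = 6.7e-04), at 122 and 69.6, 50.2 and 28.8, 82.4 and 37.8, and 65.7 and 36.0 CPM. S100a4, a calcium-binding protein of motile cells, rose by 1.27, Plac8 by 1.12, Ifitm6 by 1.495 and F10, coagulation factor X, by 1.21. Members were the higher set in every library for each of these.

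Of 14 tested tissue macrophage genes, 9 fell and 1, F13a1, rose, with a median of -1.19. Cd163, the haemoglobin scavenger receptor, was at 3.87 CPM in members and 67.8 CPM in cells with Ccl8 in the combination, 3.55 and 23.3 in 2DG, 2.44 and 29.8 in aPDL1, and 3.85 and 40.6 in ctrl. It changed by -3.47 ± 0.21 on the log2 scale (edgeR adjusted p = 9.3e-05). Folr2 was at 14.0 and 58.4, 17.2 and 51.6, 9.92 and 43.4, and 8.71 and 46.8 CPM, a change of -1.98 ± 0.13 (edgeR adjusted p = 1.3e-04). Mrc1, common in members as given above, was still lower in them, by -1.06 ± 0.12 (edgeR adjusted p = 0.0017). Pf4, Selenop, Stab1, Gas6, Cbr2 and Igf1 were the others that fell, Igf1 in 3 of 4 libraries and the rest in 4 of 4.

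Apoe was 1.24 ± 0.16 lower on the log2 scale in members (edgeR adjusted p = 0.0030), with 2602 CPM in members and 3927 in cells with Ccl8 in the combination, 2484 and 5470 in 2DG, 2527 and 7204 in aPDL1, and 2709 and 10166 in ctrl. Of 20 mononuclear phagocyte genes 10 fell, among them Ms4a7 by 1.78 and Adgre1, the F4/80 antigen, by 1.03, and Cd14, a receptor for bacterial lipopolysaccharide, rose. Csf1r was at 459 and 454, 422 and 473, 461 and 517, and 372 and 614 CPM in members and cells with Ccl8, and did not pass the test. Of 27 lysosomal genes, 10 fell and none rose, among them Ctsb and Lgmn, both proteases, and Grn, by 0.74, 0.63 and 0.65.

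Inflammatory genes were higher in members in 8 of 23 cases and lower in none. Il1b rose by 0.998 ± 0.20 (edgeR adjusted p = 0.019), with 1695 CPM in members and 995 in cells with Ccl8 in the combination, 666 and 412 in 2DG, 678 and 460 in aPDL1, and 703 and 192 in ctrl. Ptgs2, the inducible cyclooxygenase, rose by 0.96 and Il1a by 0.97. Of 16 arginase and hypoxia genes, 5 rose, among them Thbs1 by 1.22, Egln3 by 1.20 and Inhba by 1.19, and none fell. Arg1 and Spp1 did not pass: Arg1 was at 2564 and 2912, 3782 and 3204, 3528 and 2967, and 4907 and 2122 CPM in members and cells with Ccl8, lower in members in the combination and higher in the other 3 libraries.

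Chemokines parted. Of 18 tested, 5 fell in members, Ccl12 by 1.27, Ccl7 by 1.13, Cxcl9 by 0.75, Ccl5 by 0.73 and Cxcl16 by 0.38, and 2 rose, Cxcl2 by 0.72 and Cxcl14 by 0.66. Ccl7 and Ccl12 are monocyte attractants from the gene cluster that also holds Ccl8. Few antigen presentation genes passed the test. Of 11 class II genes 1 rose, and H2-Aa was at 4111 CPM in members and 3805 in cells with Ccl8 in the combination, 3735 and 3825 in 2DG, 3880 and 3899 in aPDL1, and 1394 and 2588 in ctrl, with a fold change of -0.16 ± 0.13 (edgeR adjusted p = 0.53). Of 25 interferon gamma genes 4 fell and none rose. None of 32 oxidative phosphorylation genes and none of 12 heat shock genes passed.

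The 10 largest rises, among genes with the same direction in 4 of 4 libraries, were Retnlg at 3.50, Ltf and Naip1 at 2.67, Rarb at 2.37, Areg at 2.29, Plet1 and Lyz1, F5, Ackr3 at 2.09 and Il6 at 2.01. Retnlg and Ltf are neutrophil genes, and the summed neutrophil genes were at 592, 894, 554 and 2369 CPM in members and 512, 614, 481 and 1119 CPM in cells with Ccl8. Without members high in S100a8 and S100a9, Retnlg no longer passed, with a log2 fold change of 1.23 and an edgeR adjusted p of 0.078. Il6, an inflammatory cytokine, was at 21.3 and 9.11, 16.1 and 6.92, 27.9 and 12.1, and 100.1 and 4.63 CPM in members and cells with Ccl8. The 10 largest falls were C6 at -3.91, Cd163, Gal3st4 at -3.42, Vcam1 at -3.12, Rcn3 at -2.51, Enpp2 at -2.39, Gas6, Stard13, Cp and Gm13710 at -2.14. C6 is a part of the complement attack complex. Vcam1, an adhesion molecule, was at 10.8 and 48.8, 7.57 and 62.8, 5.04 and 69.9, and 50.1 and 595 CPM.

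**Figure D5:**
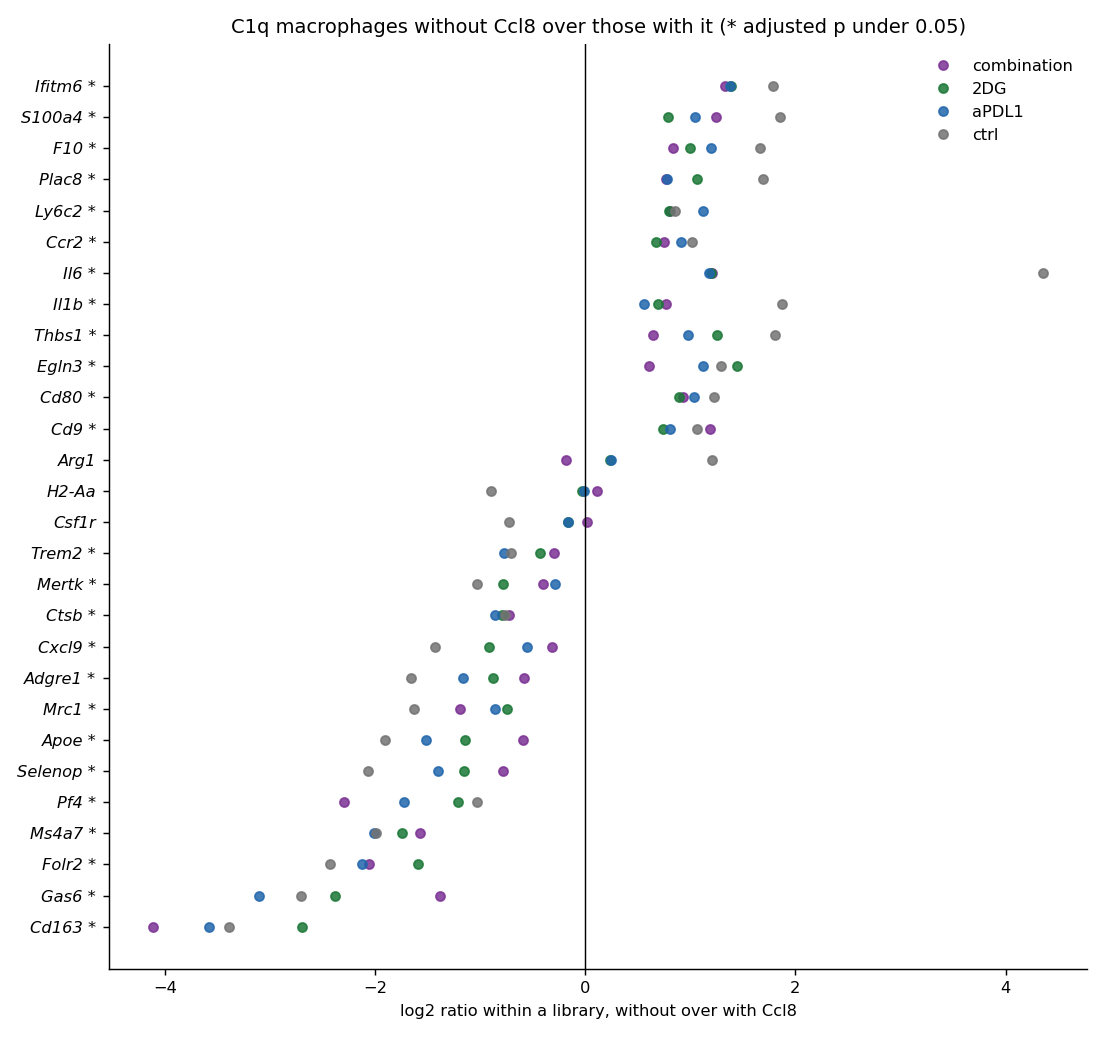
Log2 ratio of C1q macrophages without Ccl8 over those with it inside each library, 1 point a library, with genes that passed edgeR at an adjusted p under 0.05 starred. Monocyte genes lie to the right and Cd163, Gas6 and Folr2 to the left in all 4 libraries, while Arg1 and H2-Aa straddle 0.

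A pair of libraries decided much of the count. Without aPDL1 143 genes were higher and 153 lower, and without 2DG 174 and 173, against 407 and 352 without the combination and 600 and 458 without ctrl. Cells with exactly 1 Ccl8 UMI were 26.8% of the Ccl8 set in the combination, 31.2% in 2DG, 37.6% in aPDL1 and 36.6% in ctrl.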

How the data were processed

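The deposited matrices hold whole UMI counts per gene and cell barcode, 1 library a group, made by the authors with Cell Ranger and the mouse mm10 build, per the submitters' processing notes (version 3.1.0), while the matrix headers give version 7.0.0. This conflict is unsettled. Gene names and barcodes were read as deposited. Doublets were not removed for the main results. Libraries held 8701 to 9948 barcodes and 61859753 to 73885214 UMIs, and members 6470352 to 11940340 UMIs. Members and gene lists were chosen with earlier results of these data known.

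UMIs were summed over members and given as CPM with exact 95% Poisson intervals, and shares with exact Clopper-Pearson intervals, which cover counting error only. Each group is 1 library, so conditions were not tested and a size rule of 1.5-fold was used. The labels do not say whether a library pools animals. Members and C1q macrophages with Ccl8 were compared with edgeR 4.0.16 (R 4.3.3) on sums per library, with TMM factors and filterByExpr. The library was the block, because both sums come from 1 library. The p-values rest on how the difference between the cell sets inside a library varied over these 4 libraries, which had different treatments. They do not measure the spread between the libraries themselves. On simulated counts at this design, 82 to 100% of genes changed by 1 or 2 on the log2 scale were called, with 17 of the unchanged genes among 11008 fitted. Named genes were those of the lists, up to 6 a direction by size for each comparison of conditions with 50 or more UMIs, and up to 10 a direction against cells with Ccl8. Immunoglobulin, T cell receptor, haemoglobin and mitochondrial genes were not named by size. Some list symbols did not match the files, or stood for 2 rows, and have no value. Alternatives covered the rule's thresholds, doublets (Scrublet in scanpy 1.11.5), depth, low counts, scaling, DESeq2 1.42.0 and each library left out. Some genes of the lists are not reported here by name.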

Additional observations from a re-analysis of the deposited data

Results flagged for a closer look

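In the comparison with C1q macrophages that hold Ccl8, 3 of the genes named by size had 1 library far from the other 3, by Dixon's criterion for 4 values, which chance meets in about 1 in 20 groups. Ltf, a neutrophil gene, had a log2 ratio of 3.74 in 2DG. Il6 had 4.36 in ctrl. Cp, the copper-binding ferroxidase ceruloplasmin, had -1.40 in the combination, the smallest decrease of the 4 libraries.

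Gene lists moved in opposite directions under 2DG with and without the antibody, and the difference was not tested. The tissue macrophage list had a median log2 ratio of -0.42 in 2DG over ctrl and 0.35 in the combination over aPDL1, and the second turned to -0.19 with doublets removed and -0.040 with thinned cells. The metallothionein, heme and iron list had -0.69 and 0.32 in those ratios. Mt1, a metal-binding protein, was at 1234 CPM in the combination, 1119 in 2DG, 1126 in aPDL1 and 2333 in ctrl.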

How the results depend on the processing

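Shares of members under a C1q threshold of 3 UMIs were 10.7% in the combination, 8.94% in 2DG, 9.02% in aPDL1 and 13.7% in ctrl, and under a threshold of 10 UMIs 8.35, 7.10, 6.79 and 8.41%. With cells thinned before the rule they were 11.1, 9.75, 9.23 and 10.9%, and with at least 1000 genes 13.01% in ctrl. Without members high in S100a8 and S100a9 the ctrl share was 10.4%. Without members high in Arg1 and Spp1, meaning 2 or more UMIs of both together, the shares were 2.49, 1.62, 1.84 and 1.90%. Of alternatives chosen after the data were seen, leaving out members with a T or NK marker UMI gave 7.95, 6.41, 6.17 and 10.6%, and leaving out those with any S100a8 or S100a9 UMI gave 9.37, 7.58, 7.57 and 4.77%.

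Counts of genes moving in both ratios depended on the minimum of UMIs. With 20 or more UMIs 296 were higher with 2DG, and 336 were higher and 353 lower with aPDL1. With 100 or more UMIs 88 were higher and 162 lower with 2DG, 131 higher and 145 lower with aPDL1, and 277 below the range in the combination. Thinned cells gave 115 higher with 2DG, 141 with aPDL1 and 149 above the range in the combination, and a pseudocount of 5 gave 153 lower with aPDL1. Without members high in Arg1 and Spp1, 137 genes were above the range in the combination, and ctrl was outside the range in 330 genes on the high side and 394 on the low side.

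Of 125 list medians, 48 changed sign under at least 1 alternative, 42 of them with a value under 0.3 in size. The other 6 were those of the tissue macrophage list, to 0.15 in aPDL1 over ctrl with the threshold of 3 and to -0.19 and -0.040 in the combination over aPDL1 with doublets removed and with thinned cells, and of the resident peritoneal list, to 0.23 in aPDL1 over ctrl with no resident gene limit. Without members high in Arg1 and Spp1, the arginase and hypoxia list was 0.31 in the combination over aPDL1, and the chemokine and metallothionein lists were 0.59 and 0.0010 in the combination over ctrl. Nt5e was 0.35 in 2DG over ctrl and Hist1h2ac 0.14 in the combination over aPDL1 in those cells. In the combination over 2DG, Ablim1 was -0.075 without members holding T or NK UMIs, S100a8 0.54 with doublets removed and 0.13 without members high in S100a8 and S100a9, and Lcn2 1.82 and 0.78 in those settings, 1.54 without members high in Arg1 and Spp1 and 0.72 without any S100a8 or S100a9 UMI. The cause of these changes was not tested. TMM scaling moved the median of all genes by -0.10 in aPDL1 over ctrl.

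Against cells with Ccl8, 301 genes were higher with thinned cells, 304 without any S100a8 or S100a9 UMI, 95 higher and 123 lower without members high in Arg1 and Spp1, and 1170 and 626 with no low-count filter. The library is the pairing of the sums, and with no replicate block 12 were higher and 20 lower. DESeq2 called 357 and 272. With a library left out, 143 to 600 genes were higher and 153 to 458 lower. Among the 20 genes named by size, Areg, Ackr3, Il6, Plet1, Rarb, Retnlg, Ltf and F5 lost the call under at least 1 alternative that kept the block. The named genes that fell kept it in every alternative with the block that gave a value. Depth limits genes of few UMIs, and with 1 library a group no condition effect can be told apart from the library.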
